A study of Danio rerio with 6 samples.

Results

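The hypoxia response genes described here are 10 zebrafish genes outside glycolysis that encode the oxygen-labile alpha subunits of the hypoxia-inducible factors (HIF), the machinery that degrades them, or products of their known target genes. They were taken by symbol from the gene name column of the deposited tables, where 10 of 31901 genes carried a listed name: hif1ab, epas1a, epas1b, vhl, egln3, vegfaa, adma, p4ha1b, ankrd37 and ndrg1a. Matching by symbol used no measured value, but the members were chosen with earlier results of these data known. RNA was sequenced from 6 libraries, 2 for each of 3 groups. The lck-mCherry group is normal thymus of fish that carry the red fluorescent marker mCherry alone under the T-cell promoter lck. The lck-IRF4 group is tumor cells of fish that carry human IRF4, a lymphocyte transcription factor, and mCherry under that promoter, with both copies of p53 normal. The lck-IRF4;p53+/- group is tumor cells of such fish with 1 mutant p53 allele, which the study describes as unable to activate transcription. Every group therefore carries an lck-driven mCherry. Per the labels, tumor cells were sorted on mCherry after lymphoma had developed, and the labels do not say whether thymus cells were sorted. In the study's methods, adults months older than the thymus donors of its other data gave the lck-IRF4 tumors. No age is named for these controls or for the fish of the lck-IRF4;p53+/- tumors. Age, tissue of origin and transgene therefore cannot be told apart against the control, nor age and p53 genotype between the tumor groups. No source says whether the 2 libraries of a group came from separate fish, so the p-values below measure the spread between those libraries, which may be technical.

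In well-oxygenated cells, HIF alpha subunits are hydroxylated by the egln (PHD) enzymes, bound by the von Hippel-Lindau protein and degraded. When oxygen is scarce, hydroxylation slows, the subunits accumulate, pair with an Arnt partner and switch on genes for blood vessel growth, collagen modification and feedback control. Because this control acts on protein, mRNA of an alpha subunit is not a measure of HIF activity. The pathway is known from fast-growing, poorly perfused tumors, and the mouse thymus is a low-oxygen tissue.

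The libraries held between 6059449 and 7927348 gene counts. A count of 3, taken as the limit that 0 counts allow, corresponded to between 0.337 and 0.483 CPM (counts scaled to a common library size, here by the trimmed mean of M-values, TMM). Intervals and such limits cover counting error only. The spread between the libraries of a group exceeded counting noise, at a mean chi-square of at least 52.8 per gene. T-cell markers (4 of 6 listed were found: lck, bcl11ba, themis and zap70) summed to between 5211 and 7183 CPM in all 6 libraries. These sums were lowest in lck-IRF4;p53+/-, at 5211 and 5254 CPM, and the next lowest was 5863 CPM in lck-IRF4 replicate 2. Macrophage markers (5 of 5 found) summed to 25.9 and 48.7 CPM in the control, 77.7 and 68.8 in lck-IRF4, and 260.2 and 594.8 in lck-IRF4;p53+/-. Markers of stroma (5 of 5 found) summed to 4.82 and 10.2, 10.8 and 12.1, and 29.2 and 101.4 CPM in the same order, with 2 and 1 of the 5 at 0 in the control libraries. Both lists were thus highest in the lck-IRF4;p53+/- libraries, and highest of all in replicate 2. In bulk samples, more cells of a type and more RNA per cell cannot be told apart.

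**Figure D1:**
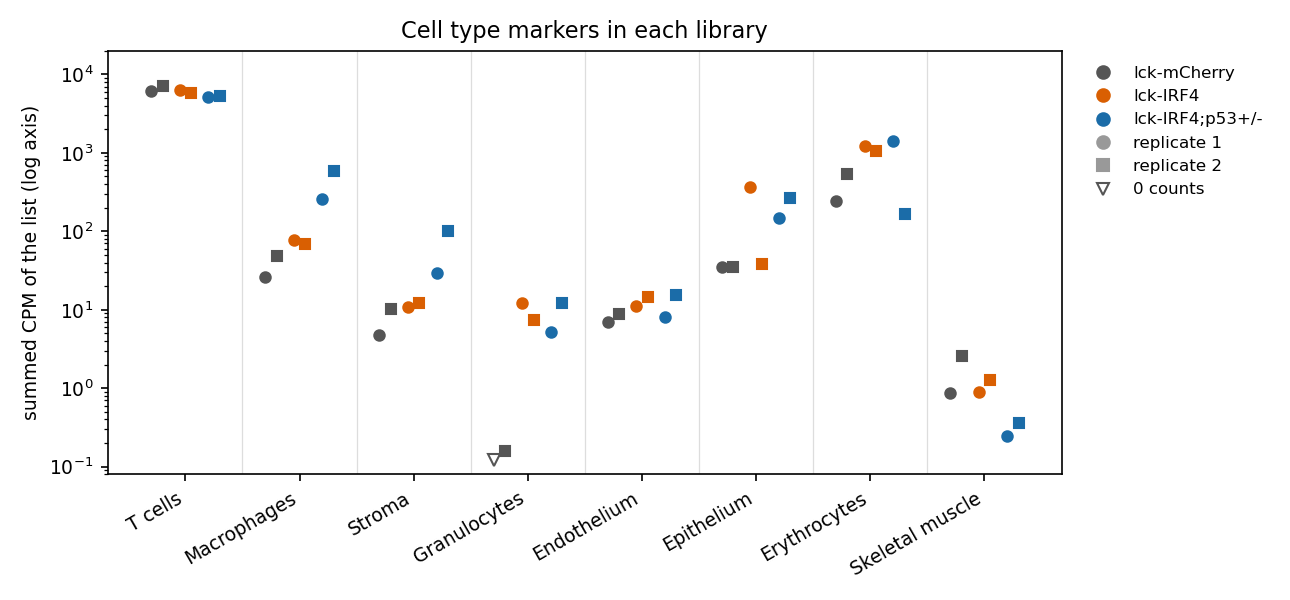
Summed CPM of the markers of 8 cell types (vertical axis, logarithmic) in each of the 6 libraries, with circles for replicate 1, squares for replicate 2 and an open triangle at the bottom for a sum of 0. T-cell marker sums lie between 5211 and 7183 CPM and are lowest in both lck-IRF4;p53+/- libraries, where macrophage and stroma sums are highest.

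Across the members, the lck-IRF4;p53+/- libraries held the most egln3, vegfaa, adma, p4ha1b and ankrd37 RNA, and the lck-IRF4 libraries the most epas1a RNA, while hif1ab and vhl showed no such pattern. None of these differences passed edgeR's quasi-likelihood test at a Benjamini-Hochberg adjusted p under 0.05 over all genes, so they are given as values. The share of all genes with either joint pattern was not counted, and each part is common. Both lck-IRF4;p53+/- libraries lay above both controls in 27.2% of all genes and above both lck-IRF4 libraries in 18.2%. Both lck-IRF4 libraries lay above both controls in 25.7% and above both lck-IRF4;p53+/- libraries in 20.7%. Of the 10 members, 9 had enough counts to be tested, and epas1b had not. The filter asked for 1.32 CPM, here without TMM scaling, in at least 2 libraries. Neither control library reached that level for epas1a, adma, p4ha1b and ndrg1a, and 1 of 2 did for vegfaa and ankrd37. These 6 therefore passed only with the help of tumor libraries, and counts and medians over the 9 tested members cannot stand as evidence.

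**Figure D2:**
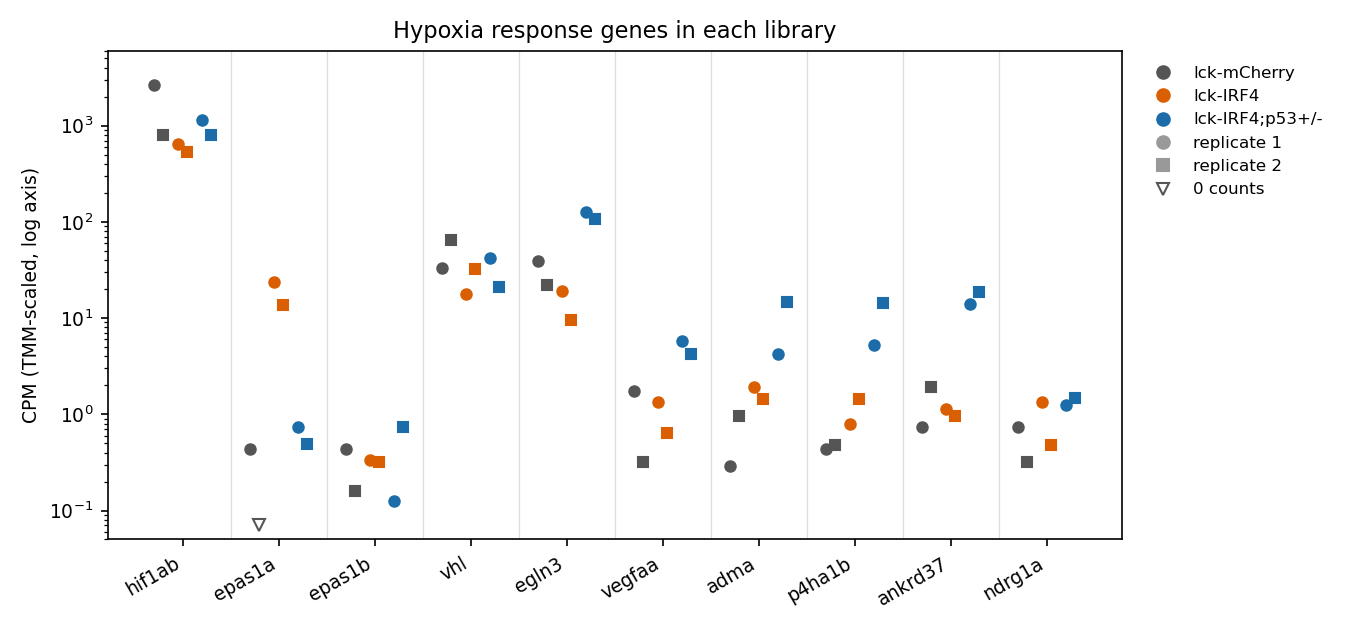
CPM of the 10 genes (vertical axis, logarithmic) in each of the 6 libraries, with circles for replicate 1, squares for replicate 2 and an open triangle at the bottom for 0 counts. For egln3, vegfaa, adma, p4ha1b and ankrd37 both lck-IRF4;p53+/- libraries lie above the other 4, and for epas1a both lck-IRF4 libraries lie above the other 4. The share of all genes with these patterns was not counted.

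Among the alpha subunits, hif1ab, a zebrafish ortholog of human HIF1A (ENSDARG00000034293.9), had the highest CPM of the members, a scale that is not adjusted for gene length. Its level was 2672 and 799.9 CPM in the control libraries, 644 and 534 CPM in lck-IRF4, and 1136 and 791 CPM in lck-IRF4;p53+/-. Both lck-IRF4 libraries were the lowest of the 6, the lck-IRF4;p53+/- libraries overlapped the controls, and control replicate 1 stood far above its partner. The log2 fold change was -1.56 (SE 0.57, edgeR adjusted p 0.206) for lck-IRF4 against the control. It was -0.85 (SE 0.56, adjusted p 0.454 by edgeR) for lck-IRF4;p53+/- against the control. Both values leaned on the control libraries: they were -0.45 and 0.27 without replicate 1, the second with the opposite sign, and -2.21 and -1.49 without replicate 2. Between the tumor groups the hif1ab difference was 0.71 (SE 0.56, edgeR adjusted p 1), so the order of the 3 groups was not resolved beyond their spread. The named genes whose log2 CPM followed hif1ab most closely over the 6 libraries were mb21d1 (Pearson r 0.993), which encodes a cytosolic DNA sensor, baz1a (0.991), a chromatin remodeling subunit, and supt6h (0.987), a transcription elongation factor, of 11063 genes compared. All 3 had their highest value in control replicate 1, for mb21d1 at 196 CPM against 20.7 in replicate 2. Like hif1ab, all 3 had their lowest value in lck-IRF4 replicate 2. The correlation without control replicate 1 was not computed.

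The gene epas1a (ENSDARG00000008697.10), an ortholog of human EPAS1 that encodes HIF-2 alpha, had 3 and 0 counts in the control, 210 and 85 in lck-IRF4, and 6 and 4 in lck-IRF4;p53+/-. On the CPM scale these were 0.438 and 0, 23.6 and 13.7, and 0.746 and 0.487. The lck-IRF4 libraries thus stood apart from the other 4, all of which lay near the level of 3 counts. Summed over libraries, 295 counts in lck-IRF4 against 3 in the control gave a ratio of 85.7 (95% exact counting interval 29.0 to 417.9). The fitted log2 fold change was 6.28 (SE 1.15), and its edgeR adjusted p of 0.0575 missed the threshold. Leaving out 1 library gave fitted values from 5.33 to 10.13, the highest without control replicate 1, when the control had 0 counts and the fit rests on its prior count. Of the alternatives that kept both libraries of the groups compared, DESeq2 passed the threshold (adjusted p 5.81e-06). So did edgeR without the filter, with only the 4 libraries compared and with a replicate block, while edgeR with RLE scaling did not. epas1a reached the filter's level only in the lck-IRF4 libraries, where it is high, so its tests after that filter are descriptive. Against the control, lck-IRF4;p53+/- had a ratio of 2.69 (95% exact counting interval 0.694 to 15.2), which is not a difference detectable at this depth. Between the tumor groups the log2 difference in epas1a was -4.89 (SE 1.03, edgeR adjusted p 0.282, DESeq2 5.72e-05), lower in lck-IRF4;p53+/-, with the groups not overlapping. HIF-2 alpha is known in mammals from endothelium and macrophages, among other cells. Macrophage marker sums, given above, were higher in both lck-IRF4;p53+/- libraries than in either lck-IRF4 library. Within that list, mpeg1.1 had a mean of 7.05 CPM in lck-IRF4 and 4.45 CPM in lck-IRF4;p53+/-, with the libraries overlapping. Endothelial markers (5 of 5 found) summed to between 7.01 and 15.3 CPM across the 6 libraries and overlapped between lck-IRF4 (11.0 and 14.7) and lck-IRF4;p53+/- (8.21 and 15.3), and erythrocyte markers (4 of 4 found) summed to 1208 and 1063 CPM in lck-IRF4, 244 and 542 in the control, and 1431 and 165 in lck-IRF4;p53+/-. Within the endothelial list, pecam1 was at 1.91 and 1.61 CPM in lck-IRF4 against 0.746 and 0.487 in lck-IRF4;p53+/-. The endothelial marker kdrl went the other way, at 0.337 and 0.161 against 0.995 and 1.46 CPM. The part of these cell types in the epas1a values was not tested.

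The other EPAS1 paralog, epas1b (ENSDARG00000057671.8), was near the detection limit throughout. It had 3 and 1 counts in the control, 3 and 2 in lck-IRF4, and 1 and 6 in lck-IRF4;p53+/-, or 16 counts in all. With so few counts no fold change is given.

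Of the genes that remove HIF alpha, vhl (ENSDARG00000070617.5), the substrate-binding subunit of the ubiquitin ligase that marks hydroxylated HIF alpha, was measured at 33.0 and 64.1 CPM in the control. It was at 17.7 and 32.0 CPM in lck-IRF4 and at 42.1 and 21.2 CPM in lck-IRF4;p53+/-. Of the tumor groups, only lck-IRF4 lay entirely below the control, at 32.0 against 33.0 CPM for the closest pair of libraries. Log2 fold changes against the control were -0.97 (SE 0.58, edgeR adjusted p 0.43) in lck-IRF4 and -0.62 (SE 0.57, edgeR adjusted p 0.595) in lck-IRF4;p53+/-, and 0.35 (SE 0.57, edgeR adjusted p 1) between the tumor groups. Leaving out 1 library moved the vhl values from -1.48 to -0.44, from -1.19 to -0.08 and from -0.19 to 0.86 in that order.

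The prolyl hydroxylase egln3 (PHD3, ENSDARG00000032553.6) both hydroxylates HIF alpha and is itself a HIF target, which makes it part of the pathway's feedback. Its level was 39.0 and 21.8 CPM in the control, 19.1 and 9.50 CPM in lck-IRF4, and 126 and 108 CPM in lck-IRF4;p53+/-. The 3 groups did not overlap: lck-IRF4 lay below the control and lck-IRF4;p53+/- above it, with close replicates in the last. Against the control the log2 fold change was -1.08 (SE 0.50, edgeR adjusted p 0.305) in lck-IRF4 and 1.95 (SE 0.51, edgeR adjusted p 0.0967) in lck-IRF4;p53+/-. The difference between the tumor groups was 3.03 (SE 0.53). Its unadjusted edgeR p was 0.000543 and its adjusted p over 14122 genes 0.246. DESeq2 called egln3 in both comparisons of lck-IRF4;p53+/- (adjusted p 0.00871 against the control and 2.99e-05 against lck-IRF4). With 1 library at a time left out, egln3 ranged from -1.67 to -0.62 in lck-IRF4 and from 1.57 to 2.42 in lck-IRF4;p53+/- against the control, and from 2.64 to 3.62 between the tumor groups.

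Both secreted factors were sparse. vegfaa (ENSDARG00000103542.2), a ligand of the vascular endothelial growth factor family that directs vessel growth, had 12 and 2 counts in the control, 12 and 4 in lck-IRF4, and 46 and 35 in lck-IRF4;p53+/-. The first 2 groups overlapped fully, and both lck-IRF4;p53+/- libraries lay above all others. Its log2 fold change was -0.04 (SE 1.03, edgeR adjusted p 0.989) in lck-IRF4 and 2.24 (SE 1.02, edgeR adjusted p 0.278) in lck-IRF4;p53+/- against the control, and 2.28 (SE 1.02, edgeR adjusted p 0.756) between the tumor groups. Without control replicate 1, the vegfaa value for lck-IRF4 was 1.6.

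The gene adma (ENSDARG00000015263.8) encodes adrenomedullin, a secreted vasodilator peptide that HIF induces in mammals. Its counts were 2 and 6 in the control, 17 and 9 in lck-IRF4, and 34 and 121 in lck-IRF4;p53+/-. The groups stood in that order without overlap, but the 2 lck-IRF4;p53+/- libraries were themselves far apart, at 4.23 and 14.7 CPM. The log2 fold change was 1.43 (SE 1.00, edgeR adjusted p 0.509) in lck-IRF4 and 3.90 (SE 1.03, edgeR adjusted p 0.0988, DESeq2 0.00793) in lck-IRF4;p53+/-. Without lck-IRF4;p53+/- replicate 2 the latter was 2.73 (edgeR adjusted p 0.534).

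Of the other known HIF targets, p4ha1b (ENSDARG00000071082.5), a catalytic subunit of the prolyl 4-hydroxylase that stabilizes collagen, followed a similar course. It had 3 and 3 counts in the control, 7 and 9 in lck-IRF4, and 42 and 118 in lck-IRF4;p53+/-. Again no groups overlapped, and lck-IRF4;p53+/- replicate 2, at 14.4 CPM, was well above replicate 1, at 5.22 CPM. The log2 fold change against the control was 1.25 (SE 0.94, edgeR adjusted p 0.545) in lck-IRF4 and 4.37 (SE 0.96, edgeR adjusted p 0.0627, DESeq2 0.00158) in lck-IRF4;p53+/-. Between the tumor groups p4ha1b differed by 3.13 (SE 0.88, edgeR adjusted p 0.405), and without lck-IRF4;p53+/- replicate 2 by 2.23. In lck-IRF4;p53+/-, p4ha1b, adma and the stroma and macrophage marker sums were all higher in replicate 2 than in replicate 1. The sums of the other marker lists, except erythrocytes, were also higher in replicate 2. Among the members, ankrd37 was higher in replicate 2 too, while egln3 and vegfaa were higher in replicate 1. In lck-IRF4 the replicates were closer, with 7 and 9 counts for p4ha1b and 17 and 9 for adma. The stroma sums there were 10.8 and 12.1 CPM and the macrophage sums 77.7 and 68.8 CPM. No order is read from these small gaps. The part of these cell types in the p4ha1b and adma values was not tested.

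Ankyrin repeat domain 37, or ankrd37 (ENSDARG00000056376.6), whose human ortholog is a HIF target, had 5 and 12 counts in the control, 10 and 6 in lck-IRF4, and 112 and 152 in lck-IRF4;p53+/-. The control and lck-IRF4 overlapped, and the lck-IRF4;p53+/- replicates were close to each other, at 13.9 and 18.5 CPM. The log2 fold change was -0.32 (SE 0.76, edgeR adjusted p 0.877) in lck-IRF4 and 3.61 (SE 0.77, edgeR adjusted p 0.0594, DESeq2 0.000338) in lck-IRF4;p53+/-. Between the tumor groups it was 3.93 (SE 0.79, edgeR adjusted p 0.272, DESeq2 0.000394). When 1 library at a time was left out, ankrd37 ranged from -0.87 to 0.48 in lck-IRF4, from 3.07 to 4.43 in lck-IRF4;p53+/- and from 3.72 to 4.16 between the tumor groups. Last, ndrg1a (ENSDARG00000032849.8), a stress-responsive gene of the NDRG family, had 5 and 2 counts in the control, 12 and 3 in lck-IRF4, and 10 and 12 in lck-IRF4;p53+/-. With 44 counts in all, its log2 fold changes of 0.81 (SE 1.08) and 1.33 (SE 1.07) against the control were not distinguishable from 0 (edgeR adjusted p 0.762 and 0.536).

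**Figure D3:**
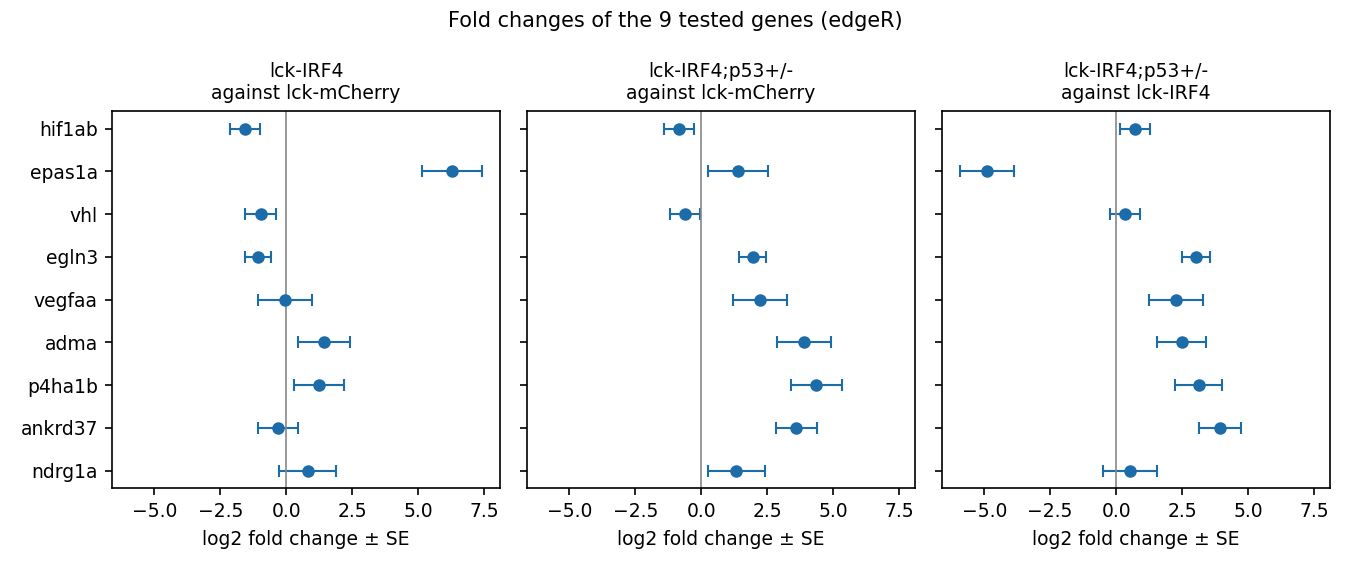
Log2 fold change of the 9 tested genes in 3 comparisons, from edgeR, with bars of 1 SE. In lck-IRF4;p53+/- against the control, egln3 (1.95), adma (3.90), p4ha1b (4.37) and ankrd37 (3.61) lie more than 3 SE above 0, and none has an adjusted p under 0.05.

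As a group, the members were counted against all 14122 genes tested. Because epas1a, vegfaa, adma, p4ha1b, ankrd37 and ndrg1a passed the filter only with the help of tumor libraries, these counts and medians are descriptive and cannot stand as evidence. For lck-IRF4 against the control, edgeR called 0 of 9 members and 0.97% of all genes. An unadjusted p under 0.05 was found for 2 members and 18.5% of all genes, and DESeq2 called 1 (epas1a) and 9.74% of all genes. Here 3 members had both tumor libraries above both controls (25.7% of all genes had) and 3 had both below (21.3% of all genes), and the median log2 fold change was -0.04 beside 0.03 for all genes. For lck-IRF4;p53+/- against the control, edgeR called 0 of 9 members and 2.44% of all genes. Here 4 members and 19.7% of all genes had an unadjusted p under 0.05, and DESeq2 called 4 (egln3, adma, p4ha1b and ankrd37) and 10.7% of all genes. In this comparison 7 members had both tumor libraries above both controls (27.2% of all genes), 0 had both below (22.8%), and the median was 1.95 beside 0.02. Between the tumor groups, edgeR called 0 of 9 members and 0.00708% of all genes. The unadjusted p was under 0.05 for 5 members and 6.85% of all genes, and DESeq2 called 3 (epas1a, egln3 and ankrd37) and 2.09% of all genes. Of the 9, 6 were higher in each lck-IRF4;p53+/- library than in either lck-IRF4 library (18.2% of all genes) and 1, epas1a, was lower in each (20.7%), with a median of 2.28 beside -0.02. The comparisons with the control share its 2 libraries. With 2 libraries in each group, the smallest two-sided p of an exact permutation test is 0.333.

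The wider pathway was examined as a list of 49 other genes, of which 47 were found, on 49 gene rows. Of these rows, 32 had enough counts to be tested, and hif3a and lox were not analysed here. edgeR called 0 of the 32 in lck-IRF4 and 1, higher, in lck-IRF4;p53+/- against the control, and 0 between the tumor groups. It called 0.97%, 2.44% and 0.00708% of all genes in that order, so a single call among 32 rows is near the share for all genes. At an unadjusted p under 0.05 there were 6, 10 and 5 of the 32, beside 18.5%, 19.7% and 6.85% of all genes. Median log2 fold changes were 0.60, 0.46 and 0.14 in that order, beside 0.03, 0.02 and -0.02 for all genes. Rows such as vegfab and p4ha2 reached the filter's 1.32 CPM only in the lck-IRF4;p53+/- libraries. Counts and medians over the pathway rows therefore cannot stand as evidence either. The called gene was bhlhe41, a basic helix-loop-helix repressor that HIF induces in mammals. It rose from 18 and 21 counts in the control to 329 and 1475 in lck-IRF4;p53+/-, a log2 fold change of 5.20 (SE 0.79, edgeR adjusted p 0.0266), and had 418 and 379 counts in lck-IRF4, at 4.17 (SE 0.76, edgeR adjusted p 0.057). The bhlhe41 call was lost without either control library (edgeR adjusted p 0.158 and 0.153), when 0 genes were called at all, and without lck-IRF4;p53+/- replicate 2 the value was 3.77 (edgeR adjusted p 0.0428). In lck-IRF4 the adjusted p of bhlhe41 passed under 6 of 11 alternatives, DESeq2 (3.11e-06) among them. Between the tumor groups the bhlhe41 libraries overlapped (1.03, SE 0.65, edgeR adjusted p 0.969).

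The pathway genes with the highest CPM, which is not adjusted for gene length, were bhlhe40, tfr1b and cited2, none of them called. bhlhe40, the paralog of bhlhe41, was at 207 and 204 CPM in the control, 253 and 423 in lck-IRF4, and 342 and 134 in lck-IRF4;p53+/-. tfr1b, a transferrin receptor for iron uptake, was at 212 and 54.1, 267 and 255, and 202 and 336 CPM in the same order. cited2, which in mammals competes with HIF for its coactivator, was at 59.9 and 91.8, 5.06 and 389, and 54.8 and 497 CPM. In each tumor group 1 cited2 value lay below both controls and the other above both, so no direction against the control can be given.

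**Figure D4:**
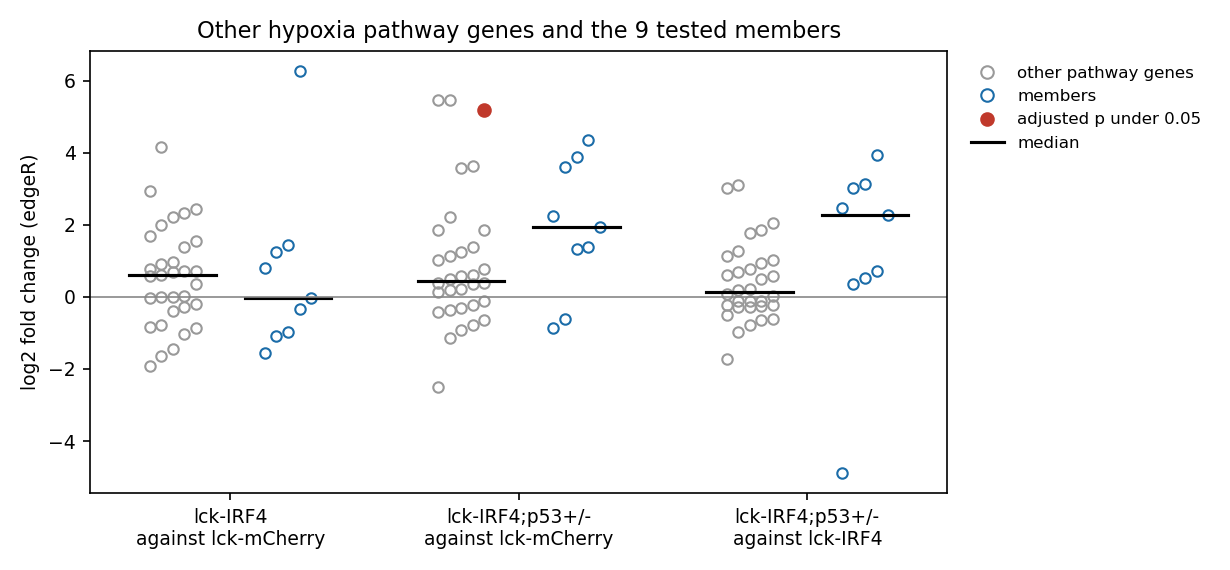
Log2 fold changes from edgeR (vertical axis) of the 32 tested pathway genes (grey) and the 9 tested members (blue) in 3 comparisons, with black lines at the medians and a filled red point for the single call. Pathway medians are 0.60, 0.46 and 0.14, and member medians are -0.04, 1.95 and 2.28. Genes of both sets passed the filter only with the help of tumor libraries, so the medians are descriptive.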

How the data were processed

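RNA of 6 zebrafish libraries was sequenced from both ends after strand-specific preparation. The submitters' processing notes name STAR 2.5.2a, featureCounts 1.6.1, DESeq2 1.12.4 and the GRCz11 genome. The authors deposited whole-number counts per Ensembl transcript for each library, not normalized, and 2 gene tables made with DESeq2. How reads were counted per gene, and whether strand was used, is not given in the sources used here, so overlapping genes and paralogs are uncertain.

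No source used here pairs transcripts with genes, so the fit planned on transcript rows could not address the members. Gene counts were instead solved from the mean of normalized counts (signal), deposited by the authors in each gene table with 15 digits. Each mean is the sum over 4 libraries of a whole count times a constant fixed by the library's size factor. The constants were read from genes with reads in 1 library and tied to libraries through the labelled transcript counts. With the controls in both tables, 6 whole counts were found per gene by lattice search. Of 23228 genes with a mean above 0, 23150 (99.7%) had exactly 1 solution and 0 had none, and the other 78, each with a mean of at least 12780, were left out. The search was tested on simulated data. In 122 of 13710 genes of at least 50 counts, all 6 recovered counts equalled a transcript row. Fold changes, standard errors, statistics and p-values in the gene tables hold the authors' own comparisons and were not used.

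Counts were tested with edgeR 4.0.16 (quasi-likelihood, TMM scaling, filterByExpr, 1 fit over 6 libraries) in R 4.3.3, which left 14122 genes, at a biological coefficient of variation of 0.535. DESeq2 1.42.0, RLE scaling, no filter, 4 libraries, a replicate block and leaving out each library were alternatives. Standard errors are the log2 fold change divided by the root of the F statistic. Named genes were all 10 members, called pathway genes and the 3 with the highest CPM, and the 3 genes most correlated with hif1ab (log2 CPM plus 0.5, systematic clone names left out). The members and lists were chosen with earlier results of these data known. No sequences or positions are given, since no reference of the files' build was used here.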

Additional observations from a re-analysis of the deposited data

Results flagged for a closer look

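Among the members and the pathway list, libraries of the 2 tumor groups lay on opposite sides of the control in 2 genes, egln3 and hif1an. The share of all genes with this joint pattern was not counted, so the 2 genes are given as values only. Each part of it is common. Both lck-IRF4 libraries lay below both controls in 21.3% of all genes. Both lck-IRF4;p53+/- libraries lay above both controls in 27.2%. Both encode oxygen-dependent hydroxylases, but the other egln genes on the list did not show it. egln1b (ENSDARG00000004632.9) lay above the control in both tumor groups, and egln1a and egln2 overlapped the control in both. egln3 was below both control libraries in both lck-IRF4 libraries (19.1 and 9.50 CPM against 39.0 and 21.8) and above them in both lck-IRF4;p53+/- libraries (126 and 108 CPM). The difference between the tumor groups was 3.03 on the log2 scale (SE 0.53, edgeR adjusted p 0.246, DESeq2 2.99e-05). egln3 and hif1an were picked by lying on opposite sides of the control, so a difference between the tumor groups follows from that choice.

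The gene hif1an, whose product (FIH in mammals) hydroxylates an asparagine of HIF alpha and so blocks its coactivator, was at 106 and 118 CPM in the control, 99.8 and 70.9 in lck-IRF4, and 269 and 319.8 in lck-IRF4;p53+/-. The closest pair of control and lck-IRF4 libraries was at 106 and 99.8 CPM. Against the control, the hif1an log2 fold change was -0.39 (SE 0.36, edgeR adjusted p 0.638) in lck-IRF4, not distinguishable from 0. In lck-IRF4;p53+/- it was 1.40 (SE 0.36, edgeR adjusted p 0.0951). The hif1an difference between the tumor groups was 1.78 (SE 0.37, edgeR adjusted p 0.282, DESeq2 0.00153). Macrophage and stroma marker sums were also highest in the lck-IRF4;p53+/- libraries, and their part in either difference was not tested.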

How the results depend on the processing

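Counts of calls moved with the tool, the filter on low counts and the libraries kept. In the order lck-IRF4 against control, lck-IRF4;p53+/- against control and between the tumor groups, edgeR called 137, 345 and 1 genes, DESeq2 1376, 1511 and 284, and edgeR without the filter on low counts 1625, 1606 and 356. With only the 4 libraries compared it called 421, 481 and 0 genes. Leaving out 1 library gave 0 to 406, 0 to 401 and 0 to 3 calls, with 0 against the control without either control library. On transcript rows as deposited (14603 tested), the same fit called 129, 292 and 1, DESeq2 1358, 1523 and 282, no filter 1759, 1792 and 505, the 4 libraries 381, 543 and 0, and leaving out 1 library 0 to 409, 0 to 507 and 0 to 16. The cause of these shifts was not tested. Sums of transcripts per gene were not run, since no source pairs them.

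No member result reversed with a call. Without the filter, hif1ab passed in lck-IRF4 (-1.59, edgeR adjusted p 0.022), and epas1a passed there with 4 libraries (6.32, adjusted p 0.0376 by edgeR). Without the filter, edgeR also called epas1a in lck-IRF4, egln3, adma, p4ha1b and ankrd37 in lck-IRF4;p53+/-, and epas1a, egln3 and ankrd37 between the tumor groups, as DESeq2 did.

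Replicate numbers in the labels do not state a shared fish or day, and differences between replicates correlated by 0.06, 0.24 and -0.02 between pairs of groups, so the numbers were not taken as pairing. With the number as a replicate block, edgeR called 177, 313 and 0 genes and 201, 350 and 1 transcripts, and epas1a in lck-IRF4 passed at an adjusted p of 0.0494.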

Other observations

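Of 5 other collagen-modifying enzymes found on the pathway list, p4ha2 and plod1a, singled out after their values were seen, were highest in both lck-IRF4;p53+/- libraries, as p4ha1b was. The other 3 had too few counts to be tested: plod2 had 0 in every library, p4ha1a had 3 in lck-IRF4;p53+/- replicate 2 and 0 elsewhere, and loxl2a overlapped the control, with 7 and 0 counts there, 1 and 0 in lck-IRF4, and 11 and 4 in lck-IRF4;p53+/-. p4ha2, another prolyl 4-hydroxylase subunit, had 0 and 1 counts in the control, 7 and 1 in lck-IRF4, and 43 and 24 in lck-IRF4;p53+/-. plod1a, a lysyl hydroxylase, had 0 and 2, 4 and 8, and 44 and 79 counts in the same order. Neither would have passed the filter on low counts without the lck-IRF4;p53+/- libraries. Neither was called by edgeR in lck-IRF4;p53+/- against the control (adjusted p 0.0989 and 0.0807), and both were by DESeq2 (0.038 and 0.00368). Type I collagen transcripts, part of the stroma list, went the same way: col1a2 had a log2 fold change of 4.68 (SE 0.90, edgeR adjusted p 0.0468) and col1a1a of 3.87 (SE 1.36, edgeR adjusted p 0.18). For p4ha2 the higher lck-IRF4;p53+/- library was replicate 1, while for p4ha1b, plod1a and the stroma list it was replicate 2.

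Of the macrophage list, marco, c1qb and c1qc were called higher in lck-IRF4;p53+/- against the control, at 3.68 (SE 0.71, edgeR adjusted p 0.047), 3.52 (SE 0.55, adjusted p 0.0283) and 3.86 (SE 0.66, adjusted p 0.0362) by edgeR. These 3 calls, and that of col1a2, were lost without either control library and without lck-IRF4;p53+/- replicate 2 (edgeR adjusted p between 0.0818 and 0.226), and that of marco also without lck-IRF4 replicate 2 (0.054). mpeg1.1 of the same list was not called, at 0.22 (SE 0.84, edgeR adjusted p 0.915). The granulocyte marker lyz, near 0 in the control, was called higher in lck-IRF4;p53+/- against the control (6.37, SE 1.19, edgeR adjusted p 0.0438). It was not called in lck-IRF4 (6.54, SE 1.19, edgeR adjusted p 0.057), and mpx was called in neither (edgeR adjusted p 0.163 and 0.155). Granulocyte markers (lyz and mpx) summed to 0 and 0.159 CPM in the control, 12.0 and 7.41 in lck-IRF4, and 5.22 and 12.3 in lck-IRF4;p53+/-. Epithelial markers summed to 34.9 and 34.7, 368 and 38.0, and 147 and 265 CPM in the same order, and skeletal muscle markers to at most 2.55 CPM in any library. angptl4, a secreted regulator of lipid uptake that HIF induces in mammals and also chosen after its values were seen, had 9 and 2 counts in the control, 98 and 11 in lck-IRF4, and 94 and 76 in lck-IRF4;p53+/-, with no call by edgeR (adjusted p 0.209 and 0.133).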
